A study of Mus musculus with 8 samples.

Results

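The mitochondrial ribosomal proteins are the nuclear-encoded proteins of the mitoribosome, and their genes carry the symbols Mrpl, for the large subunit, and Mrps, for the small subunit. They were chosen by symbol: every gene named Mrpl or Mrps followed by a number and at most 1 letter, with at least 10 counts summed over the 8 libraries. This gave 78 genes of 35494 symbols, 49 Mrpl and 29 Mrps genes. No gene of this name fell under the minimum, and the lowest summed count was 4658, for Mrps6. All 78 also passed the filter on low counts of the test.

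The samples were quadriceps muscles of 8 wild-type male C57BL/6 mice, with 1 mRNA library per mouse. Each of the 4 scMC38 mice had MC38 cells, 1 M in number and from a colorectal cancer line of the mouse, injected under the skin, and each of the 4 control mice had PBS injected in the same way. The mice were 8 weeks old at the start and muscle was taken on day 28. All mice were wild type, and the model is a tumour grown from 1 cell line under the skin, away from the colon. The comparison asks how expression of these genes in muscle differed between mice with and without the tumour.

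The mitoribosome makes the few proteins that mitochondrial DNA encodes, all of them core parts of the respiratory chain and ATP synthase. Its rRNAs come from mitochondrial DNA, whereas all of its proteins are encoded in the nucleus, made in the cytosol and imported. Part of these proteins have homologues in bacterial ribosomes, and others were gained during the evolution of mitochondria. Skeletal muscle fibres are rich in mitochondria, and their content varies with fibre type and use.

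Libraries held 50.5 to 62.1 M counts. The 12 muscle fibre markers, among them Ckm and Acta1, summed to between 1.227e+05 and 1.617e+05 counts per M (CPM) in controls and between 1.121e+05 and 1.567e+05 CPM in scMC38, so all 8 libraries held abundant fibre RNA. Markers of oxidative fibres varied more: Myh2, a myosin of oxidative fibres, was at 1306, 2296, 528.7 and 9.43 CPM in Controls 1 to 4 and 132.7, 84.8, 544.2 and 561.5 CPM in scMC38 1 to 4. Mb, the myoglobin gene, was at 2144, 4409, 903.9 and 192.5 CPM and at 649.6, 728.2, 1201 and 1401 CPM. Both were picked with their values in view, and both were highest in Control 2 and lowest in Control 4. The libraries scMC38 1 and scMC38 3 stood apart: 12 marrow progenitor and neutrophil markers summed to 471.5 and 4252 CPM in them, against 10.1 and 31.3 CPM in the other scMC38 libraries and 0.874 to 7.16 CPM in controls, with Ms4a3 at 0 in every control. Bone cell markers summed to 2962 CPM in scMC38 3 and to between 37.7 and 244.4 CPM in the other 7 libraries, with Bglap2 and Mepe at 0 in every control. Col1a1 alone ranged from 30.95 to 234.3 CPM in those 7, so their sums say little of the rarer markers. For Ibsp, the library scMC38 1 held 40.55 CPM, scMC38 3 held 137.1, scMC38 4 held 1.399 and every other library at most 0.06. In scMC38 1, Ctsk (14.57 CPM), Mmp13 (7.02 CPM), Bglap (3.53 CPM) and Bglap2 (2.09 CPM) were also above every control. So were Sp7 (0.42 CPM), Sost (0.25 CPM) and Mepe (0.15 CPM), at low levels. Col1a1, Dmp1, Phex and Acp5 in scMC38 1 were not above every control. Controls 1 and 2 held more mitochondrially encoded RNA, at 24.3% and 29.7% of counts, than the other 6 libraries, at 14.4% to 18.9%. Most results are therefore also given without scMC38 1 and 3, without Controls 1 and 2, or both. In bulk muscle, fewer cells of a type and less RNA per cell cannot be told apart.

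None of the 78 genes was called in either direction. The difference between scMC38 and control was tested by edgeR's quasi-likelihood F test with Benjamini-Hochberg adjustment over the 14112 genes tested, and a call is an adjusted p under 0.05. Of all genes tested, 0.468% were called lower and 0.737% higher, 1.2% together, and a count of 0 among 78 is near that background. At an unadjusted p under 0.05, 16 of the 78 were lower and 0 higher in scMC38, beside 9.77% and 11.2% of all genes. The count of 16, taken here in either direction, moved with single libraries, and so did the share of all genes, 21.0% in the main fit. Without Controls 1 to 4 in turn the count was 9, 8, 16 and 30, beside 15.4%, 17.3%, 17.2% and 22.1% of all genes. Without scMC38 1 to 4 in turn the count was 7, 10, 7 and 18, beside 17.0%, 19.7%, 20.3% and 20.6%. With scaling by total counts it was 6, beside 22.9%. DESeq2, run as a second tool, called 4 of the 78 lower, Mrpl48, Mrpl42, Mrps22 and Mrpl30, and 3.6% of the genes to which it gave an adjusted p.

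The estimates leaned to 1 side with small size. The log2 fold change was negative in 70 of the 78 genes, which is 89.7%, against 49.8% of all genes tested. Its median was -0.16, with all genes tested at 0.00087, and it ran from -0.40 in Mrpl12 to 0.18 in Mrps30. As a share of the control mean, scMC38 means lay between 75.5% and 114%. The 95% interval of the log2 fold change stayed within 1.5-fold in either direction in 67 of the 78 genes and reached past it in 11. The standard error of a log2 fold change had a median of 0.10 over the 78 genes.

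**Figure D1:**
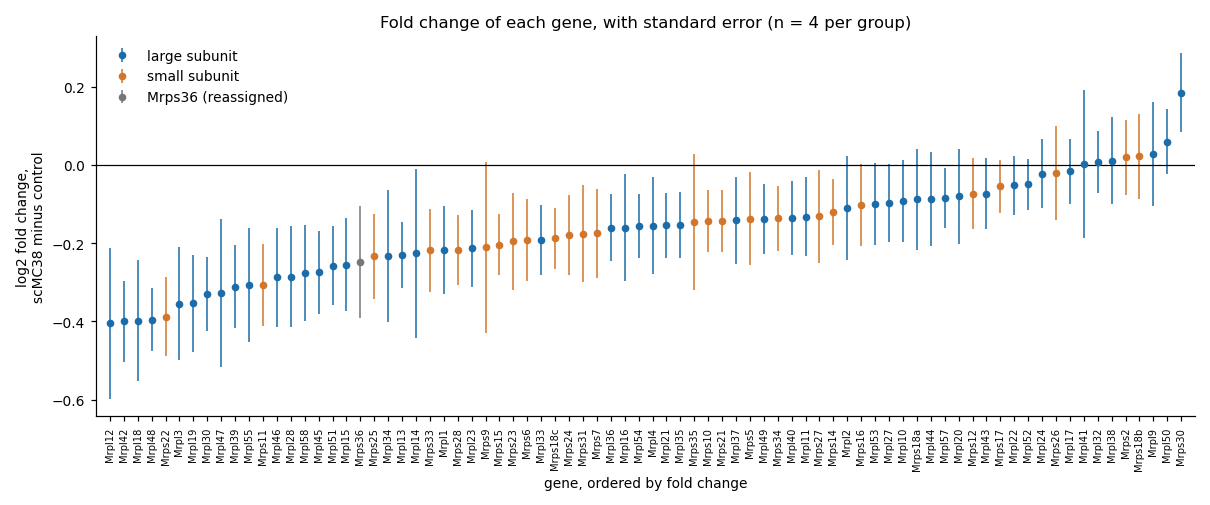
Log2 fold change of scMC38 minus control on the y axis for each of the 78 genes on the x axis, ordered by value. Points are edgeR estimates with their standard error (4 libraries per group), coloured by subunit, and 70 of the 78 points lie below 0, the lowest at -0.40 and the highest at 0.18.

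Estimates in both subunits were mostly negative. Among the 51 genes whose proteins sit in the large subunit, 45 estimates were negative with a median of -0.16. Among the 26 of the small subunit, 24 were negative, with a median of -0.16. These counts place Mrps18a and Mrps30 in the large subunit, where their proteins are found despite the names, and leave out Mrps36. By origin, the 30 large-subunit genes with bacterial homologues had a median of -0.18 and 28 negative estimates, and the 21 mitochondria-specific ones -0.14 and 17. The 15 small-subunit genes with bacterial homologues had a median of -0.14 with 14 negative, and the 11 mitochondria-specific ones -0.18 with 10 negative. All 4 of these medians lay between -0.18 and -0.14, and no difference between classes was tested. Without scMC38 1 and 3, 23 of the 30 and 12 of the 21 large-subunit genes were negative, and 13 of the 15 and 9 of the 11 small-subunit genes. Without Controls 1 and 2 the counts were 20, 13, 12 and 8.

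**Figure D2:**
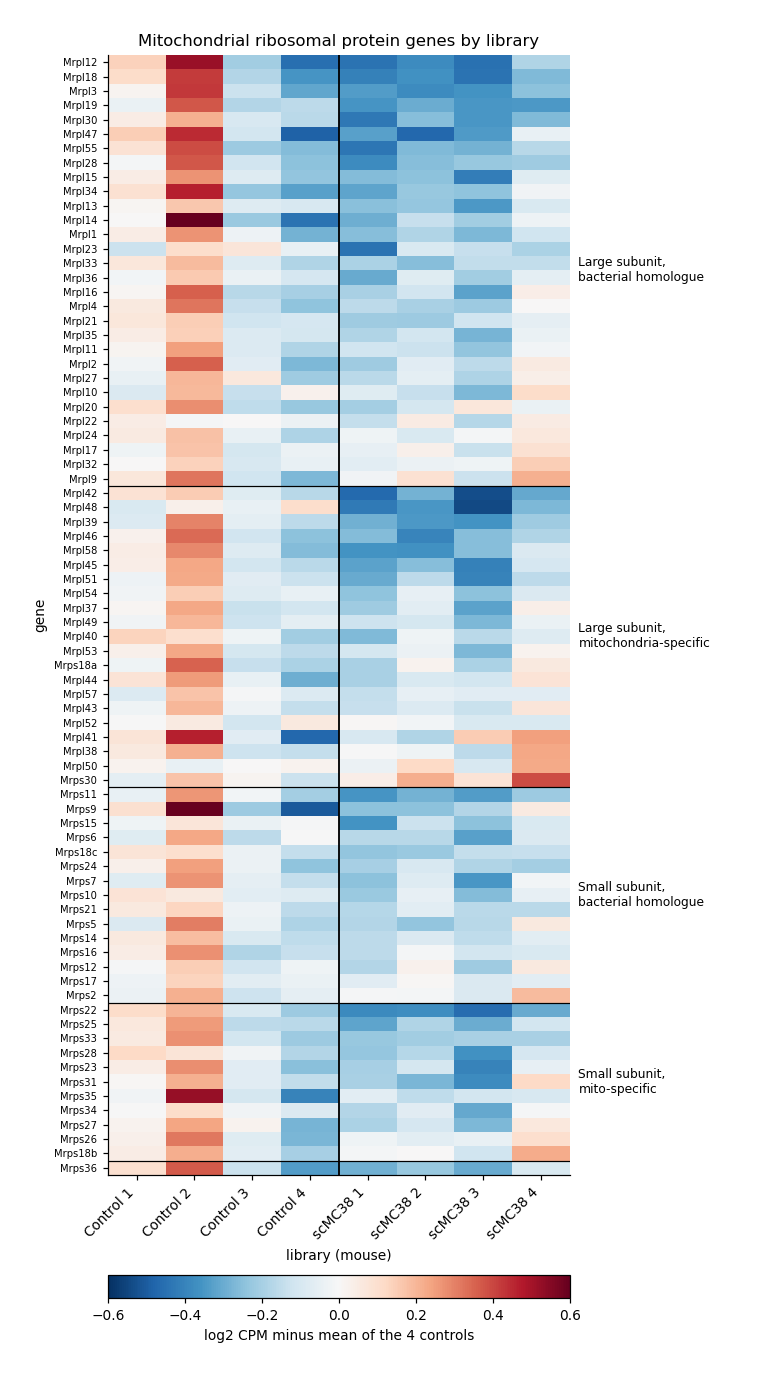
Heat map of log2 CPM minus the mean of the 4 controls, on a colour scale from -0.6 to 0.6, with 1 row per gene (78, grouped by subunit and origin, Mrps36 in the last row) and 1 column per library (4 controls, then 4 scMC38). Control 2 is the highest library for 67 of the 78 genes, and the palest differences among scMC38 libraries are in scMC38 4.

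In 9 of the 78 genes, 11.5%, every scMC38 library lay below every control, against 6.45% of all genes tested. The opposite, every scMC38 library above every control, held for 0 of the 78 and for 6.82% of all genes. The 9 were Mrpl48, Mrpl42, Mrps22, Mrpl30, Mrpl39, Mrps11, Mrpl19, Mrps15 and Mrpl51. Of these, Mrps11, Mrpl19 and Mrps15 lie outside the naming rule and were picked with their values in view. The 9 genes fall in both subunits, 6 in the large and 3 in the small.

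Mrpl48, a mitochondria-specific protein of the large subunit, had the smallest p of the family. Its CPM was 41.9, 45.6, 43.3 and 48.0 in Controls 1 to 4 and 33.2, 35.0, 30.6 and 37.0 in scMC38 1 to 4. The groups did not overlap: every control was above every scMC38 library. The means were 44.7 ± 2.68 CPM in controls and 34.0 ± 2.69 CPM in scMC38 (SD, n = 4). The log2 fold change was -0.40 with a standard error of 0.08 and an edgeR adjusted p of 0.0610, just outside the threshold. It was called when the filter asked for at least 1 CPM in 4 libraries (edgeR adjusted p = 0.0489) and by DESeq2 (adjusted p = 0.00214). Unlike most of the family, Mrpl48 was not highest in Control 2, and its log2 fold change was -0.44 without Controls 1 and 2 and -0.29 without scMC38 1 and 3.

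Mrpl42, also specific to mitochondria and in the large subunit, was the most abundant member by CPM and per kilobase. It stood at 230, 242, 207 and 193 CPM in Controls 1 to 4 and at 157, 178, 150 and 175 CPM in scMC38 1 to 4. The groups were apart, with Control 4 nearest to scMC38. The estimate was a log2 fold change of -0.40 with a standard error of 0.10 (edgeR adjusted p = 0.0930, DESeq2 adjusted p = 0.00953). It was -0.29 without Controls 1 and 2 and to -0.28 without scMC38 1 and 3.

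Mrps22, a mitochondria-specific protein of the small subunit, had 18.7, 19.9, 16.3 and 14.9 CPM in Controls 1 to 4 and 13.3, 13.4, 12.6 and 14.0 CPM in scMC38 1 to 4. The scMC38 libraries were close together, and the controls were split, with 1 and 2 above 3 and 4. The estimate was a log2 fold change of -0.39 with a standard error of 0.10 (edgeR adjusted p = 0.0949, DESeq2 adjusted p = 0.0280), and -0.23 without Controls 1 and 2.

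Mrpl30, the large-subunit homologue of a bacterial protein of the same number, had 73.1, 82.3, 66.3 and 63.3 CPM in Controls 1 to 4 and 52.6, 59.3, 55.7 and 58.9 CPM in scMC38 1 to 4. The same order appeared, with Control 2 highest and Controls 3 and 4 nearest to scMC38. The log2 fold change was -0.33 with a standard error of 0.09 (edgeR adjusted p = 0.112, DESeq2 adjusted p = 0.0416), and -0.21 without Controls 1 and 2. Mrpl39, a mitochondria-specific protein of the large subunit, followed at -0.31 (edgeR adjusted p = 0.151), with 19.2 to 26.4 CPM in controls and 16.7 to 18.5 CPM in scMC38. Its estimate was -0.20 without Control 2 alone, -0.20 without Controls 1 and 2 and -0.27 without scMC38 1 and 3.

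The other 4 genes without overlap had narrower margins. Mrps11 had 12.7 to 17.6 CPM in controls and 11.5 to 12.6 CPM in scMC38 (log2 fold change -0.31, edgeR adjusted p = 0.152). Mrpl19 had 15.7 to 22.9 CPM in controls and 13.8 to 14.4 CPM in scMC38 (log2 fold change -0.35, edgeR adjusted p = 0.159). Mrps15, whose controls lay close together at 50.9 to 55.0 CPM, had 40.7 to 49.1 CPM in scMC38 (log2 fold change -0.20, edgeR adjusted p = 0.183). Mrpl51 had 97.6 to 125 CPM in controls and 80.7 to 95.8 CPM in scMC38 (log2 fold change -0.26, edgeR adjusted p = 0.196). These estimates were smaller in size without scMC38 1 and 3 and without Controls 1 and 2. Without scMC38 1 and 3 they were -0.24 for Mrps11, -0.32 for Mrpl19, -0.09 for Mrps15 and -0.14 for Mrpl51, and without Controls 1 and 2 they were -0.20, -0.18, -0.19 and -0.16.

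**Figure D3:**
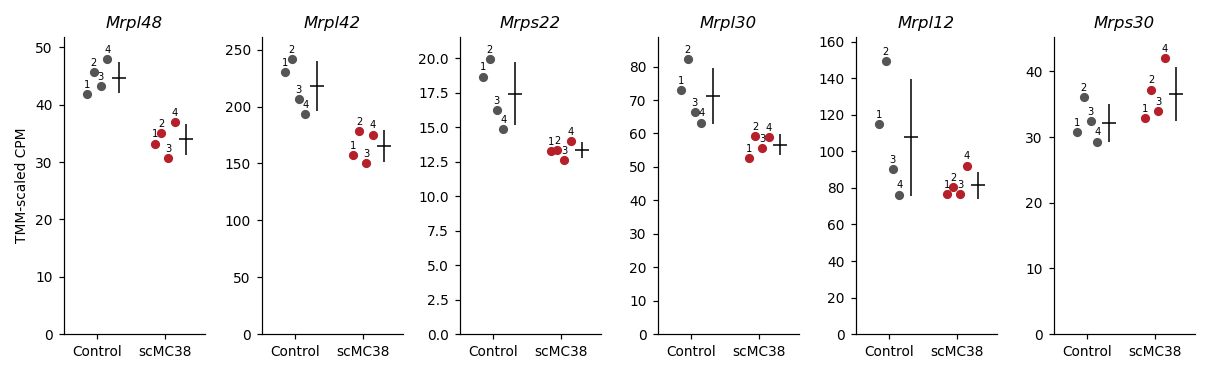
CPM per library (y axis, from 0, scaled per gene) of Mrpl48, Mrpl42, Mrps22, Mrpl30, Mrpl12 and Mrps30 in the 4 controls and 4 scMC38 mice, numbered by replicate, with the mean and SD beside each group. The groups are apart in the first 4 genes and overlap in Mrpl12, where Controls 1 and 2 at 115 and 149 CPM stand above all other libraries, and in Mrps30.

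Mrpl12 and Mrps12 mark the large and the small subunit. Mrpl12 is the stalk protein of the large subunit, and Mrps12 belongs to the decoding centre of the small one. Mrpl12 had 115, 149, 90.5 and 76.4 CPM in Controls 1 to 4 and 76.8, 80.3, 76.4 and 92.2 CPM in scMC38 1 to 4. The groups overlapped, and only Controls 1 and 2 were above every scMC38 library. Its log2 fold change of -0.40 was the lowest of the family but had a standard error of 0.19 and an edgeR adjusted p of 0.269. It was -0.21 without Control 2 alone, -0.05 without Controls 1 and 2 and -0.30 without scMC38 1 and 3. Mrps12 had 26.6, 29.6, 24.7 and 26.2 CPM in Controls 1 to 4 and 23.6, 27.2, 23.0 and 27.8 CPM in scMC38 1 to 4. Its groups overlapped throughout (log2 fold change -0.07, 95% interval -0.28 to 0.13, edgeR adjusted p = 0.670), and the estimate turned to 0.06 without scMC38 1 and 3 and to 0.03 with scaling by total counts.

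Mrpl18, a large-subunit protein with a bacterial homologue, was like Mrpl12. It had 64.9, 80.4, 53.3 and 47.1 CPM in Controls 1 to 4 and 45.4, 46.8, 44.2 and 50.02 CPM in scMC38 1 to 4, so that scMC38 4 stood above Control 4. The log2 fold change was -0.40 with a standard error of 0.15 (edgeR adjusted p = 0.192) and was -0.24 without Control 2 alone and -0.12 without Controls 1 and 2. Mrpl10 and Mrpl11, the proteins beside Mrpl12 at the stalk, had log2 fold changes of -0.09 (edgeR adjusted p = 0.644) and -0.13 (edgeR adjusted p = 0.475). Mrpl10 was at 28.4 to 35.8 CPM in controls and 26.0 to 33.7 CPM in scMC38, and turned to 0.01 under scaling by total counts. Without Control 2 alone the estimates were -0.02 for Mrpl10 and -0.04 for Mrpl11, and without Controls 1 and 2 they were -0.04 and -0.0024.

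The highest estimate belonged to Mrps30, whose protein lies in the large subunit. It had 30.8, 36.1, 32.4 and 29.3 CPM in Controls 1 to 4 and 32.9, 37.2, 33.9 and 42.0 CPM in scMC38 1 to 4. The groups overlapped, with scMC38 4 highest. The log2 fold change was 0.18 with a standard error of 0.10 (edgeR adjusted p = 0.324), and it was positive under all 17 alternative settings, at 0.11 without scMC38 4, 0.32 without scMC38 1 and 3 and 0.23 without Controls 1 and 2. The next were Mrpl50 at 0.06 (edgeR adjusted p = 0.710), Mrpl9 at 0.03 (0.928), Mrps18b at 0.02 (0.932) and Mrps2 at 0.02 (0.932), all with overlapping groups. Their signs rested on single libraries. Without scMC38 4 they were -0.0022 for Mrpl50, -0.035 for Mrpl9, -0.051 for Mrps18b and -0.041 for Mrps2. Without Control 3 they were -0.016 for Mrpl9, -0.0023 for Mrps18b and -0.024 for Mrps2, and without Control 4 -0.056 for Mrpl9 and -0.041 for Mrps18b.

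The genes Mrps18a, Mrps18b and Mrps18c are paralogs of 1 bacterial protein, and their products occupy different places in the mitoribosome. In the counts by origin above, only Mrps18c was placed with the bacterial homologues. Mrps18a and Mrps18b were counted there as mitochondria-specific, despite this kinship. Mrps18a had 50.5, 65.7, 46.9 and 45.2 CPM in Controls 1 to 4 and 44.96, 52.3, 45.1 and 53.6 CPM in scMC38 1 to 4. Mrps18b had 41.2, 46.4, 38.3 and 34.8 CPM in controls and 39.6, 40.1, 36.8 and 46.7 CPM in scMC38. Mrps18c had 16.3, 16.6, 15.1 and 14.0 CPM in controls and 13.1, 13.3, 14.0 and 14.0 CPM in scMC38. Groups overlapped in all 3, and the log2 fold changes were -0.09 (edgeR adjusted p = 0.725), 0.02 (0.932) and -0.19 (0.214). Mrps18c was at -0.11 without Controls 1 and 2. The sign for Mrps18a turned to 0.02 with total counts, 0.04 without Control 2, 0.05 without scMC38 1 and 3 and 0.08 without Controls 1 and 2.

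Mrpl58, a peptidyl-tRNA hydrolase that became part of the large subunit and frees peptides from stalled ribosomes, had 18.8 to 27.6 CPM in controls and 17.6 to 21.2 CPM in scMC38 (log2 fold change -0.28, edgeR adjusted p = 0.242). Its estimate was -0.17 without Control 2 alone and -0.11 without Controls 1 and 2. Mrps36, which carries the family name but was reassigned to the 2-oxoglutarate dehydrogenase complex, had 46.9 to 76.3 CPM in controls and 47.9 to 55.5 CPM in scMC38 (log2 fold change -0.25, edgeR adjusted p = 0.346). Control 2 was its highest library, as in most of the ribosomal members, and the estimate was -0.11 without Control 2 and -0.0074 without Controls 1 and 2. Mrpl23 had 13.1, 15.4, 15.1 and 13.9 CPM in Controls 1 to 4 and 10.5, 13.5, 13.0 and 12.6 CPM in scMC38 1 to 4. It shares sequence with the row Mrpl23-ps1, a pseudogene listed at 27.5 to 34.4 CPM, so the division of reads between these rows is uncertain. The other 5 pseudogene rows of the family, such as Mrpl27-ps and Mrps36-ps1, were at or near 0 in every library.

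Levels of different genes were compared as CPM per kilobase of coding length, over all 8 libraries. The median of the family was 49.8. Mrpl42 stood highest, at 512 ± 51.7 in controls and 388 ± 32.4 in scMC38 (SD, n = 4), followed by Mrps21, a small-subunit protein with a bacterial homologue, at 296 ± 25.1 and 268 ± 9.97, and Mrpl51 at 279 ± 31.5 and 233 ± 19.2. Mrps21 and Mrpl51 did not differ beyond their spread in controls. Lowest were Mrps31 at 18.04 ± 1.99 and 16.0 ± 2.48, Mrps35 at 16.9 ± 4.77 and 15.2 ± 0.379, and Mrps22 at 16.2 ± 2.13 and 12.4 ± 0.529, and in controls these 3 were not apart from each other. Their log2 fold changes were -0.18 for Mrps31 (edgeR adjusted p = 0.438) and -0.15 for Mrps35 (edgeR adjusted p = 0.661), the latter at 0.06 without Control 2 and 0.13 without Controls 1 and 2, and that of Mrps21 was -0.14 (edgeR adjusted p = 0.326). Mrps31 was at -0.10 without Control 2, -0.11 without scMC38 3, -0.29 without scMC38 4 and -0.05 without scMC38 1 and 3. Mrps35 was at -0.27 without Control 4, and Mrps21 at -0.06 without Controls 1 and 2. By class, medians of this level ran from 43.3 for mitochondria-specific small-subunit genes to 62.6 for small-subunit genes with bacterial homologues. The order depended on the length used: per kilobase of whole mRNA, Mrpl42 and Mrps21 remained the first and the second of the 78, whereas Mrpl51 became number 30 and Mrps22 number 55.

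Across libraries the family followed a pattern that the 2 groups did not capture. Its level in a library, the median over the 78 genes of log2 CPM minus the control mean, was 0.03, 0.23, -0.08 and -0.17 in Controls 1 to 4 and -0.20, -0.12, -0.23 and -0.06 in scMC38 1 to 4. Control 2 was highest by a wide margin, and Controls 3 and 4 lay within the scMC38 range. Control 2 was the highest library for 67 of the 78 genes (19.2% of all genes tested), scMC38 4 for 6, Control 1 for 3 and Control 4 for 2. The lowest library was scMC38 3 for 30 genes, Control 4 for 22, scMC38 1 for 16, scMC38 2 for 6 and Control 3 for 4.

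As a share of all counts, the 78 genes took 0.285%, 0.314%, 0.271% and 0.257% in Controls 1 to 4 and 0.262%, 0.262%, 0.276% and 0.266% in scMC38 1 to 4. The scMC38 shares all lay between those of Control 4 and Control 1. Relative to counts outside the mitochondrial genome, the shares were 0.377%, 0.447%, 0.324% and 0.309% in controls and 0.306%, 0.311%, 0.336% and 0.328% in scMC38. Controls 1 and 2 were again the highest of the 8, whereas Controls 3 and 4 lay among the scMC38 libraries.

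Without Control 2 alone, 60 of the 78 estimates were negative and the median was -0.09. Without Controls 1 and 2, 54 of the 78 estimates were negative and the median was -0.05. Without scMC38 1 and 3, 58 were negative and the median was -0.07. None of these 3 fits called a member. With scaling by total counts in place of TMM, 54 were negative and the median was -0.05, while the median of all genes moved to 0.11. The median of the family minus that of all genes was -0.16 under both scalings. Under total counts, 80.9% of the calls over all genes were higher in scMC38, against 61.2% with TMM. In 10 genes, all 4 scMC38 libraries lay below Controls 3 and 4. They were Mrpl23 and the 9 without overlap, for which this follows. The share over all genes was not computed, so this count has no background beside it.

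**Figure D4:**
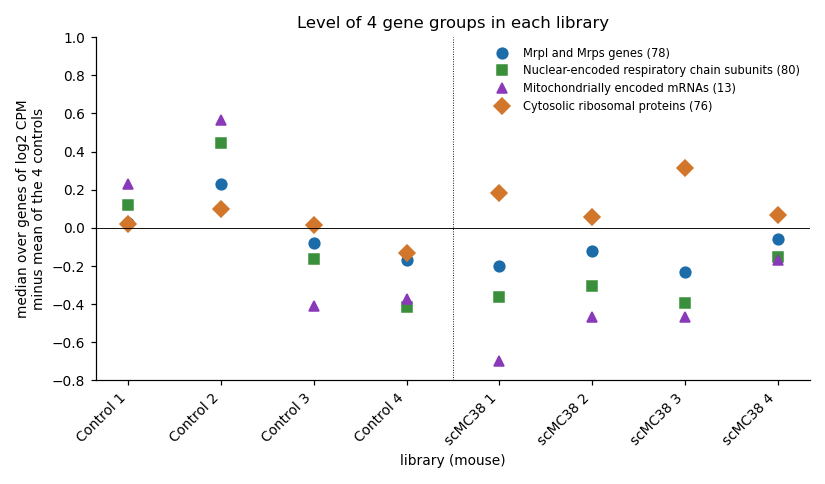
Median over genes of log2 CPM minus the mean of the 4 controls (y axis) in each of the 8 libraries (x axis) for the 78 Mrpl and Mrps genes, 80 nuclear-encoded respiratory chain subunits, 13 mitochondrially encoded mRNAs and 76 cytosolic ribosomal proteins. The first 3 groups are highest in Control 2, at 0.23, 0.44 and 0.57, and cytosolic ribosomal proteins are highest in scMC38 3, at 0.31.

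The mitochondrially encoded mRNAs and the nuclear-encoded respiratory chain subunits were also highest in Controls 2 and 1, in that order. They differed in the order of the remaining libraries. Not every mitochondrial list shared this order: genes for transcription and upkeep of mitochondrial DNA stood at -0.01 in Control 2 and 0.16 in scMC38 4. The 13 mitochondrially encoded mRNAs, the templates the mitoribosome translates, stood at 0.23, 0.57, -0.41 and -0.37 in Controls 1 to 4 and -0.70, -0.47, -0.47 and -0.17 in scMC38 1 to 4 on the scale used above. All 13 estimates were negative with a median of -0.49, which was -0.03 without Controls 1 and 2 and -0.35 without scMC38 1 and 3. By edgeR and by DESeq2 0 of the 13 were called. At an unadjusted p under 0.05, 1 of them, 7.69%, was lower, beside 9.77% of all genes. The smallest p belonged to mt-Nd4l (log2 fold change -0.53, edgeR adjusted p = 0.234) and mt-Nd1 (-0.53, edgeR adjusted p = 0.253). The 80 nuclear-encoded respiratory chain and ATP synthase subunits had a median of -0.32 with 79 negative, and Control 2 was the highest library for 79 of them. Without Controls 1 and 2, 44 were negative and the median was -0.02. By edgeR 0 of the 80 were called. At an unadjusted p under 0.05, 14 of the 80, 17.5%, were lower, beside 9.77% of all genes. DESeq2 called 1 of them lower, beside 3.6% of the genes to which it gave an adjusted p. The 76 proteins of the cytosolic ribosome leaned the other way, with 74 positive estimates and a median of 0.16, which was 0.08 without scMC38 1 and 3, the libraries with marrow and cell cycle RNA, and 0.20 without Controls 1 and 2. By edgeR and by DESeq2 0 of the 76 were called. At an unadjusted p under 0.05, 11 of the 76, 14.5%, were higher, beside 11.2% of all genes. These last 2 groups were chosen by symbol after values had been seen, and the part of mitochondrial RNA content and of oxidative fibre RNA in the results for the Mrpl and Mrps genes was not tested.

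The genes that assemble and serve the mitoribosome gave 0 calls by edgeR as well, in all 6 lists that follow. At an unadjusted p under 0.05, 13 of the 91 genes of these lists were lower and 6 higher, beside 9.77% and 11.2% of all genes, and DESeq2 called 2 lower and 4 higher, beside 3.6% and 5.69% of the genes it tested. With scaling by total counts, where the median of all genes was 0.11, the medians were 0.02 for the other ribosomal proteins, 0.06 for assembly, -0.04 for translation factors, 0.07 for tRNA synthetases, 0.10 for transcription and upkeep and 0.11 for regulators. Without scMC38 1 and 3 they were -0.01, 0.07, -0.02, 0.06, 0.08 and -0.07 in the same order, and without Controls 1 and 2 they were -0.0042, 0.01, -0.05, 0.01, -0.04 and 0.12. Of 5 mitoribosomal proteins with other symbols, 4 estimates were negative with a median of -0.10, led by Chchd1 (log2 fold change -0.22, edgeR adjusted p = 0.201) and the RNA-binding protein Ptcd3 (-0.33, edgeR adjusted p = 0.218). Of 28 genes for assembly and rRNA modification, 18 were negative with a median of -0.05. Their smallest p-values belonged to Mtres1, which rescues stalled mitoribosomes (-0.43, edgeR adjusted p = 0.123), and Malsu1, an assembly factor of the large subunit (0.23, edgeR adjusted p = 0.126). Malsu1 had 28.3 to 31.0 CPM in controls and 33.5 to 38.3 CPM in scMC38, without overlap and opposite in direction to most of the proteins it helps to assemble. It was the only 1 of the 28, 3.57%, with every scMC38 library above every control, against 6.82% of all genes tested. In 1 other, Mterf3, every scMC38 library lay below every control, against 6.45% of all genes.

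Of 17 mitochondrial translation factors, 16 estimates were negative with a median of -0.15, and without scMC38 1 and 3 there were 10, without Controls 1 and 2 13. Taco1, the translational activator of cytochrome oxidase subunit mt-Co1, had 33.4 to 40.2 CPM in controls and 23.1 to 29.6 CPM in scMC38 (log2 fold change -0.40, edgeR adjusted p = 0.0882). Slirp, which stabilises mitochondrial mRNAs, had 23.1 to 28.7 CPM in controls and 20.8 to 22.8 CPM in scMC38 (log2 fold change -0.32, edgeR adjusted p = 0.0934). DESeq2 called both. With Mtrfr and Mtfmt, 4 of the 17, 23.5%, had every scMC38 library below every control, against 6.45% of all genes tested. Of the 17 mitochondrial tRNA synthetases, 10 were negative with a median of -0.03, and Sars2 (-0.27, edgeR adjusted p = 0.213) and Cars2 (-0.17, edgeR adjusted p = 0.338) had the smallest p.

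The 13 genes for transcription and upkeep of mitochondrial DNA were balanced, with 6 negative and a median of 0.0003. Polrmt, the mitochondrial RNA polymerase, had 23.6 to 26.1 CPM in controls and 29.4 to 38.3 CPM in scMC38 (log2 fold change 0.37, edgeR adjusted p = 0.0896). Polg, the DNA polymerase, had 29.8 to 34.5 CPM in controls and 35.5 to 40.1 CPM in scMC38 (log2 fold change 0.25, edgeR adjusted p = 0.118). Neither overlapped between groups, both had higher means in scMC38, and neither passed edgeR's threshold, whereas DESeq2 called Polrmt. These 2 of the 13, 15.4%, had every scMC38 library above every control, against 6.82% of all genes tested.

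Among 11 regulators of mitochondrial genes, 6 were negative and the median was -0.01. The smallest p belonged to Myc, a growth factor-responsive transcription factor, with 3.54 to 6.45 CPM in controls and 7.60 to 14.4 CPM in scMC38 (log2 fold change 1.03, edgeR adjusted p = 0.0849), and to Pprc1, a coactivator of the PGC-1 family (0.31, edgeR adjusted p = 0.0964). Myc was highest in scMC38 3, at 14.4 CPM, the library with most marrow marker RNA, and the part of those cells in its level was not tested. Ppargc1a, the coactivator PGC-1alpha, had 38.8, 62.05, 43.5 and 29.7 CPM in Controls 1 to 4 and 25.4, 29.2, 23.7 and 40.3 CPM in scMC38 1 to 4, with Control 2 highest as in the Mrpl and Mrps genes (log2 fold change -0.55, edgeR adjusted p = 0.234). Esrra, its partner receptor, had 98.6, 136, 78.9 and 69.9 CPM in controls and 60.3, 65.7, 59.4 and 71.5 CPM in scMC38 (log2 fold change -0.58, edgeR adjusted p = 0.148). Nrf1 (0.15, edgeR adjusted p = 0.318), Gabpa (0.04, 0.828) and Yy1 (0.21, 0.114) had positive estimates. DESeq2 called Myc, Pprc1 and Yy1 higher. These 3, Ppargc1a and Esrra were picked with their values in view.

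The promoters of these genes share sequence features that the choice by symbol did not use. RefSeq promoters of build GRCm38.p6, from 250 bases before to 50 after the start, were found for 69 of the 78 genes. Where several starts were listed for a gene, motifs were searched in the promoter of the first alone. Letters matched on either strand were, for NRF1, GCGC, A, any base and GCGC in a row, and otherwise CCGGAAG for ETS factors such as GABP, AANATGGC for YY1, GGGCGG for SP1, CACGTG for the E-box and TATAAA for the TATA box. No motif is contained in another, although matches of different motifs can share bases. NRF1 and GABP are transcription factors known for driving nuclear genes of mitochondrial proteins.

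**Figure D5:**
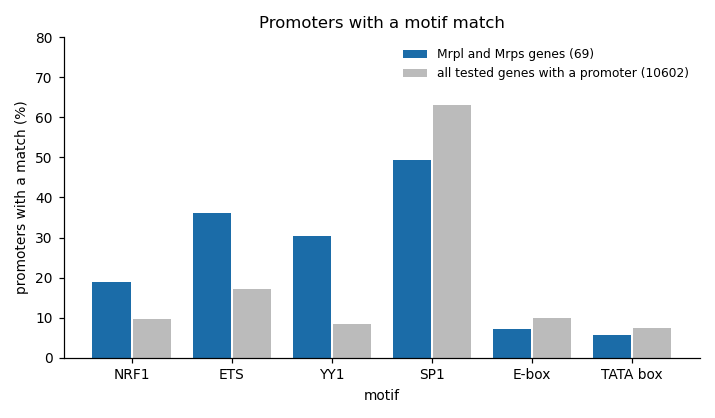
Percentage of promoters (y axis) holding at least 1 match to each of 6 motifs (x axis) among 69 Mrpl and Mrps genes and among 10602 tested genes with a promoter. The share is higher in the Mrpl and Mrps genes for NRF1, ETS and YY1 (18.8%, 36.2% and 30.4%) and lower for SP1 (49.3% against 63.1%).

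A YY1 match was present in 21 of 69 promoters, 30.4%, against 8.37% of 10602 tested genes and 6.23% of all 27025 promoters. An ETS match was present in 25, 36.2%, against 17.1% and 9.12%, and an NRF1 match in 13, 18.8%, against 9.74% and 4.78%. Any of these 3 was present in 46, 66.7%, against 30.7% and 18%. SP1 letters were less frequent than in tested genes, in 34 promoters or 49.3% against 63.1%, with 35.9% of all promoters. The E-box was in 5 promoters, 7.25% against 9.95% and 7.24%, and the TATA box in 4, 5.80% against 7.54% and 14.2%. Median GC content was 58.3% in the family and 60.7% in tested genes. Genes with any of the 3 matches had a median log2 fold change of -0.15 (42 of 46 negative), and those without one -0.16 (20 of 23 negative).

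The stretches upstream of the marker genes Mrpl12 and Mrps12 and of Mrpl48, Mrpl42 and Mrps22, the 3 genes of smallest p, are shown to let these motifs be seen in place. Each is 160 bases of build GRCm38.p6, read 5′ to 3′ on the strand of the gene, from the RefSeq promoters, with motif matches in capitals. The stretch of Mrpl12 is chr11:120484453-120484612 on the plus strand and ends 25 bases before the start. It holds an NRF1 match on the strand opposite to the gene. That of Mrps12, chr7:28741822-28741981 on the minus strand, holds an SP1 match on the opposite strand. The others are all on the minus strand and end at the base before the start. For Mrpl48 it is chr7:100608302-100608461, with an SP1 match on the gene's strand. For Mrpl42 it is chr10:95501950-95502109, with an SP1 match on the opposite strand. For Mrps22 it is chr9:98601680-98601839, with an SP1 match and an ETS match 11 bases before the start, both on the gene's strand. All 5 lie outside annotated exons.
Mrpl12: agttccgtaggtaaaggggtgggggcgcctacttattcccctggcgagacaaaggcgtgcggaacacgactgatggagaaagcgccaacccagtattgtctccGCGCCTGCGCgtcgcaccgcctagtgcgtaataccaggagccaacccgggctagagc
Mrps12: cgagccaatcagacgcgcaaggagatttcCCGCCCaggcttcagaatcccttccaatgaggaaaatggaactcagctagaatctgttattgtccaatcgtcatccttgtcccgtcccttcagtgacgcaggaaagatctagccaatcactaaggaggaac
Mrpl48: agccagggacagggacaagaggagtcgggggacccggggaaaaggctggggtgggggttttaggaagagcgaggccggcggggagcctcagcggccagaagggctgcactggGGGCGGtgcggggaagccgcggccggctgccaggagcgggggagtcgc
Mrpl42: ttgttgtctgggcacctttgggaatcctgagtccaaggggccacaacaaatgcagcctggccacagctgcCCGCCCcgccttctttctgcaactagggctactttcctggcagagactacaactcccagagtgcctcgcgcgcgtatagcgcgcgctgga
Mrps22: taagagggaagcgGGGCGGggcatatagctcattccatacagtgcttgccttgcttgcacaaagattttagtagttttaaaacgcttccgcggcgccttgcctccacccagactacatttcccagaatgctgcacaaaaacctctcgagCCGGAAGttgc
The full promoters of Mrps12 (ETS and YY1) and Mrpl42 (YY1) hold further matches outside the stretch shown, whereas the one searched for Mrpl48 has SP1 letters alone. For Mrpl48, 4 starts were listed, and the promoters of the others were not searched. A match describes the letters and shows no binding.

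Many of the genes start back to back with a neighbour. In 26 of the 69, 37.7%, the start of a gene on the opposite strand lay within 1000 bases upstream, against 18.2% of tested genes and 12.3% of all genes. In 1 case both neighbours are in the family: Mrpl46 and Mrps11 start 42 bases apart and had log2 fold changes of -0.29 and -0.31. Mrpl46, named for this pair, had 13.6 to 20.4 CPM in controls and 12.3 to 14.3 CPM in scMC38 (edgeR adjusted p = 0.237). Other pairs join a ribosomal gene to another mitochondrial gene, as Mrps12 with the seryl-tRNA synthetase gene Sars2 at 147 bases and Mrpl43 with the helicase gene Twnk at 116 bases. Mrpl30, at -0.33, starts 66 bases from Mitd1, at 0.20 (edgeR adjusted p = 0.742). Of the 26 members with such a neighbour, 22 were negative, whereas of their 20 tested neighbours outside the family 6 were negative, with a median of 0.05 and 0 called. The listed starts of such pairs point away from each other. Where other transcripts of a pair overlap and the counting did not use strand, their shared reads cannot be told apart.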

How the data were processed

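RNA of quadriceps muscle was sequenced in 4 control and 4 scMC38 mice, 1 library each, with groups and replicate numbers from the sample titles. The authors deposited 1 table of estimated counts, by gene and unscaled. Salmon 1.10.3, fastp 1.0.1, R 4.4.3, FastQC 0.12.1 and MultiQC 1.30 are listed, per the submitters' processing notes, together with build GRCm39, and the role of each is not stated there. Annotation, gene-level summing and strand use were not given in the sources used here. Because Salmon shares out ambiguous reads by a model, rows of genes with nearly the same sequence are uncertain, and 65.4% of nonzero values of the 78 genes carry a fraction.

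Of 35667 rows, 144 had no symbol and were left out (0.00270% to 0.00403% of counts), rows of 26 repeated symbols were summed, and the estimated counts were rounded. The test was the robust quasi-likelihood F test of edgeR 4.0.16 (R 4.3.3) without covariates, after filterByExpr (minimum count 10 and total 15) and TMM scaling, adjusted by Benjamini-Hochberg over 14112 genes. Adjusted p-values are edgeR's unless DESeq2 1.42.0 is named. Standard errors are those implied by the F statistic. CPM is TMM-scaled, and log2 CPM carries a prior count of 2. The common biological coefficient of variation was 27.3%, so the spread between mice, not counting error, sets the precision. Chi-square per degree of freedom was at least 63.2 for each pair of libraries in a group, so no library was a repeat of another. Each library is 1 mouse, which the labels do not tie to cages or cohorts.

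Lengths are from GENCODE M21 and promoters from RefSeq, both of build GRCm38. A RefSeq protein length had been planned for the levels, and the GENCODE coding length of the principal isoform was used in its place. Since the counts use GRCm39, no other coordinates are given. Protein sequences of the Mrps18 paralogs were not used here. The members, gene lists and tests were chosen with earlier results of these data known, so a pattern is a description. The genes named are the 5 with the smallest p, the 5 highest and 5 lowest fold changes, the 3 highest and 3 lowest levels per kilobase, 10 set by role (Mrpl12, Mrps12, Mrps18a, Mrps18b, Mrps18c, Mrps30, Mrps36, Mrpl58, Mrpl10 and Mrpl11) and, in each other list, the 2 of smallest p. Alternatives were other scalings and filters, DESeq2, the replicate number as a block, and leaving out libraries.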

Additional observations from a re-analysis of the deposited data

Results flagged for a closer look

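Mrps21 in scMC38 was the only one of 52 groups of 4 values examined in which a library stood apart by Dixon's criterion at its 95% critical value. The library scMC38 2, at 73.8 CPM, lay above the other 3, at 68.3 to 68.8 CPM, with a gap of 0.918 of the range. The 4 controls spread from 69.0 to 84.2 CPM, so 73.8 CPM lies inside their range. Chance alone marks about 1 in 20 such groups.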

How the results depend on the processing

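The 78 genes gave 0 calls, higher or lower, in every setting run but 2: 1 was called lower with a filter of at least 1 CPM in 4 libraries (Mrpl48) and 4 were called lower by DESeq2. The median log2 fold change was negative in all 17 alternatives. Leaving out 1 library at a time it lay between -0.20 and -0.09, with 60 to 77 negative estimates and 0 called. Over all genes, 104 were called higher and 66 lower. The higher count was 216 with total counts, 69 without a filter, 901 with DESeq2, 25 without scMC38 1 and 3 and 0 without Controls 1 and 2, and the lower count was 570, 39 and 0 in the last 3. Leaving out 1 library gave 1 to 59 higher and 1 to 52 lower. With the replicate number as a block, 0 genes were called higher and 1 lower, and of the 78 genes 0 were called (median -0.15, smallest adjusted p 0.192). Samples with the same number correlated at -0.11, -0.28, -0.01 and -0.24, and none correlated best with its own number. With 4 libraries per group this check cannot tell whether the numbers mark something shared, and the labels do not say.

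Of the 23 named genes, 15 kept their direction in all 17 alternatives, and all reversals were of small values. With total counts, Mrpl10 was at 0.0105, Mrps12 at 0.0285 and Mrps18a at 0.0196. Without scMC38 1 and 3, Mrpl10 was at 0.0054, Mrps12 at 0.0615 and Mrps18a at 0.0452. Without Controls 1 and 2, Mrps18a was at 0.0793 and Mrps35 at 0.1278. Leaving out 1 library at a time gave -0.0022 to 0.1075 for Mrpl50, -0.0559 to 0.1435 for Mrpl9, -0.0509 to 0.0970 for Mrps18b, -0.0414 to 0.0937 for Mrps2, -0.1508 to 0.0419 for Mrps18a and -0.2676 to 0.0585 for Mrps35. The cause was not tested.

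The groups held 4 mice each, and the median standard error was 0.10. At log2 differences of about -0.4, passing the threshold varied with the tool for Mrpl48, Mrpl42 and Mrps22, and with the filter for Mrpl48. Mrpl12 and Mrpl18, at estimates of like size with standard errors of 0.19 and 0.15, passed it in no setting. The mouse libraries differ in mitochondrial RNA and in marrow and bone RNA, and their part in these results was not tested.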

Other observations

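Sums of the other cell type markers, in CPM, were 88.0 to 127 in controls and 83.9 to 276.8 in scMC38 for 10 macrophage markers, and 501.1 to 1087 against 1644 to 2893 for 10 red cell markers, the only one of the 6 lists given here in which every scMC38 library was above every control. They were 389.8 to 623.9 against 326.8 to 541.9 for 8 endothelial markers, 1897 to 2782 against 1469 to 2562 for 8 fibroblast markers, all of which had negative estimates (median -0.57), with Col3a1 (log2 fold change -1.96, edgeR adjusted p = 0.0352) and Smoc2 (-0.70, edgeR adjusted p = 0.0479) called lower, and they were 54.7 to 700.1 against 132.3 to 421.4 for 6 adipocyte markers. The 12 cell cycle markers summed to 4.57 to 6.65 CPM in controls and to 53.0, 5.49, 169.8 and 4.55 CPM in scMC38 1 to 4. The part of these cells in the levels of the Mrpl and Mrps genes was not tested.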
